A study of Mus musculus with 19 samples.

Results

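The liver differences between malnourished females and malnourished males were examined across autosomal genes, in 10 of the 19 bulk RNA-sequencing libraries of a diet-by-sex study in wild type C57BL/6J mice. Membership followed the sample labels alone: 5 libraries came from malnourished females and 5 from malnourished males, each the liver of 1 mouse aged 8 weeks. Malnutrition was induced with a low-protein, low-fat diet (7% protein, 5% fat and 88% carbohydrate by label) that dams received from pup day 8 and to which pups were weaned at day 21 for a further 5 weeks. The control diet, of the same energy, held 20% protein, 15% fat and 65% carbohydrate. Its 5 female and 4 male libraries are used here to show where the malnourished sex difference was different. They also entered the same fit, with its filter, scaling and estimate of the spread. Every group carried the wild type genotype and no further agent. The labels give neither the dam of a mouse nor the hour at which its liver was taken under the 14:10 hour light:dark cycle. Because nothing in the labels ties mice to separate litters, p-values measure the spread between these mice. In all, 12959 autosomal genes passed the expression filter and could be compared.

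Rodent liver is one of the most sexually dimorphic organs outside the reproductive tract. Its dimorphism is set largely by the time course of growth hormone in blood, pulsatile in males and near continuous in females, which hepatocytes read through the growth hormone receptor, JAK2 and the transcription factor STAT5. In males, pulses favour genes such as those of the major urinary proteins, while the repressor BCL6 holds female-typical genes down. In females, the factor CUX2 holds down male-typical genes. Fasting and castration are known to change this axis, and the products it controls include P450 enzymes, sulfotransferases, bile acid enzymes and terminal complement proteins. Levels are given below as CPM (counts scaled to a common library total), which compare mice for 1 gene and not genes with each other. Differences are female minus male on the log2 scale with their standard error (SE), and adjusted p is from edgeR's quasi-likelihood test with Benjamini-Hochberg adjustment over all genes tested. A gene was called where that p was under 0.05.

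Libraries held 26276886 to 32741092 counts in malnourished females and 27157293 to 32828713 in malnourished males. The Y-linked gene Ddx3y lay at 23.2 to 36.6 CPM in the malnourished males, with at most 1 count in any malnourished female, as the labels state. The hepatocyte product albumin (Alb) lay at 110187 to 125381 CPM in malnourished females and at 94008 to 144695 CPM in malnourished males. The malnourished males were not uniform. On the first principal component of all 19 libraries (43.8% of the variance), malnourished males 1 and 3 lay at -32.06 and -21.94, while males 2, 4 and 5 lay between 1.31 and 10.66 and the malnourished females between 39.19 and 46.08. Males 1 and 3 were also the malnourished males nearest to the control males, which lay between -64.89 and -47.48. Results that rest on this pair are therefore given with both and without both.

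Of the autosomal genes tested, 945 (7.29%) were higher in malnourished females and 1358 (10.5%) were higher in malnourished males, 17.8% together. Few of these differences were large: 205 genes were at least 2-fold higher in females and 204 at least 2-fold higher in males, 3.16% of those tested. The lowest and highest values of the groups did not overlap for 1525 genes (11.8%). Most genes named below were picked by the size of their difference or by a small adjusted p, so a lack of overlap among them is no finding. Leaving out malnourished male 3 reduced the calls to 509 and 849, and leaving out both males 1 and 3, which leaves 3 males, reduced them to 275 and 470. The direction of small differences depended on scaling. With library totals alone in place of trimmed-mean scaling, 1987 genes were called higher in females and 602 in males, so that 76.7% of calls pointed to females rather than 41.0%, and the median over all genes moved from 0.01 to 0.15.

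Male-typical liver genes were far higher in males among malnourished mice. All 21 tested major urinary protein genes (Mup), which encode small pheromone-carrying proteins excreted in urine, were higher in malnourished males, with a median log2 difference of -6.72 against 0.01 over all autosomal genes. Among 28 tested male-biased liver genes 24 were higher in males and none was higher in females, with a median of -2.15; 1 was higher in females without male 4, with library totals alone, with DESeq2 and with limma-voom. With males 1 and 3 left out, 21 of 21 and 20 of 29 were called and the medians were -4.59 and -1.27. Of all genes 10.5% were higher in malnourished males. Both lists were assembled from genes known for their sex bias, and their direction is therefore no independent evidence.

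The 14 largest differences in each direction were chosen among genes whose groups did not overlap, so that their separation is no finding. Those toward males were those of Slco1a1, Elovl3, Hsd3b5, the paired genes Cyp4a12a and Cyp4a12b, and 9 Mup genes. Cyp4a12a, a fatty acid hydroxylase that is a standard male marker of mouse liver, was found at 248, 11.6, 152, 29.6 and 19.5 CPM in malnourished males 1 to 5 and at 0, 0.102, 0.123, 0.0321 and 0.113 CPM in malnourished females 1 to 5. No female reached the lowest male, and males 1 and 3 stood above the others. The log2 difference was -10.15 ± 0.99 (SE; adjusted p = 2.32e-06), -9.36 without male 1 and -7.96 without both males 1 and 3. Its neighbour Cyp4a12b gave 2252 counts in the 5 males and 1 count in the 5 females, a ratio of 2388 with a 95% counting interval of 428 to 94364, which covers counting error only.

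Elovl3, which elongates saturated and monounsaturated fatty acids, was at 678, 23.3, 416, 24.1 and 99 CPM in the males against 0.732, 0.952, 0.614, 0.738 and 1.69 CPM in the females. Its log2 difference of -8.01 ± 0.90 (adjusted p = 1.16e-05) was -7.20 without male 1 and -5.66 without both males 1 and 3. The organic anion transporter gene Slco1a1 was at 524, 125, 385, 99.5 and 194 CPM in the males and at 2.16, 0.918, 0.461, 0.674 and 3.18 CPM in the females, a difference of -7.47 ± 0.61 (adjusted p = 1.71e-07) that was -6.54 without both males. For these genes the malnourished females were low in every mouse and the males ranged widely. Hsd3b5, a steroid dehydrogenase gene of male liver, differed by -6.96 ± 0.85 (adjusted p = 2.28e-05), by -6.23 without male 1 and by -5.06 without both. Mup13 was at 554, 75.2, 497, 59.8 and 56.1 CPM in the males and at 0.43 to 1.72 CPM in the females (-8.26 ± 0.76, adjusted p = 1.09e-06; -6.29 without males 1 and 3). Mup10 differed by -8.65 ± 0.85 (adjusted p = 2.41e-06), by -10.03 without female 5 and by -7.25 without males 1 and 3. Mup7 and Mup14 differed by -8.96 ± 1.21 (adjusted p = 7.1e-05) and -9.01 ± 1.23 (adjusted p = 7.66e-05), by -7.12 and -7.88 without male 1, and by -4.88 and -5.40 without both males 1 and 3. Mup genes are nearly identical to one another, as are the members of several families named below, and how reads shared by such copies were counted is not given in the sources used here, so that the split between members is uncertain.

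**Figure D1:**
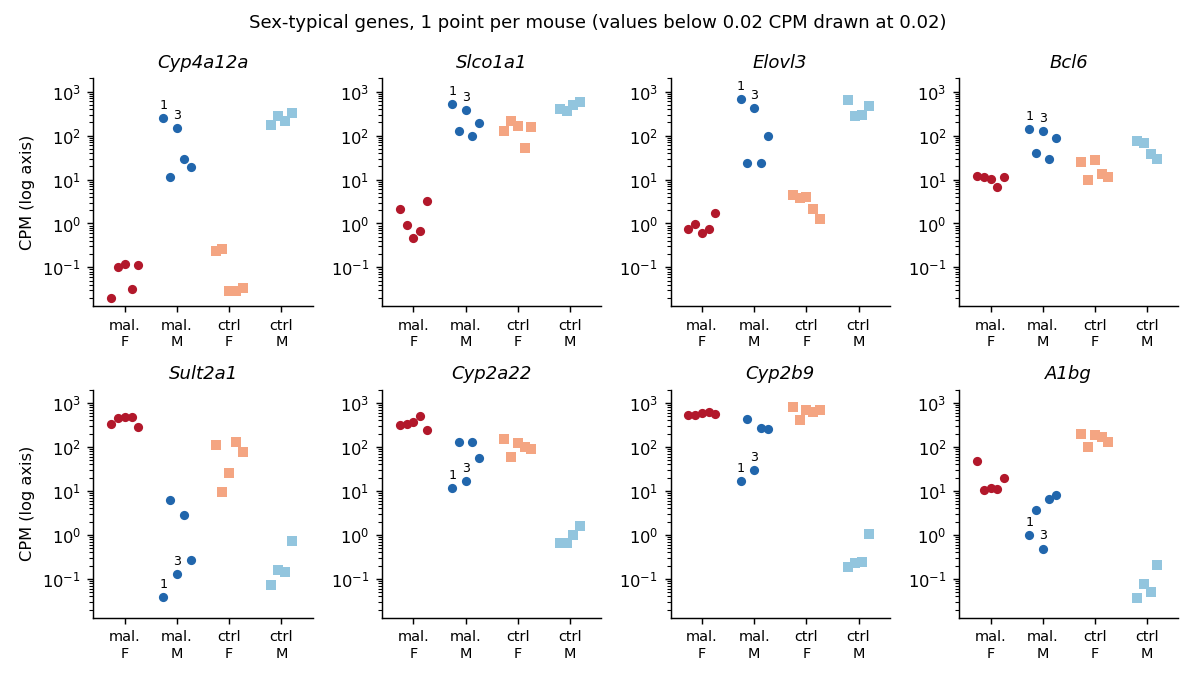
CPM (log axis) of 8 sex-typical genes in each mouse of the 4 groups (mal., malnourished; ctrl, control diet; F, female; M, male), with malnourished males 1 and 3 marked by number. The malnourished sexes did not overlap for the male-typical genes (upper row), which was a condition for choosing all of them but Bcl6. For Cyp2a22, Cyp2b9 and A1bg (lower row) every malnourished male lay above the control males, for A1bg only slightly in male 3.

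Female-typical genes were higher in malnourished females, by less. Of 36 tested female-biased liver genes, 25 were higher in malnourished females, 1 was lower and 10 were not called. Over all genes 7.29% were higher and 10.5% lower. This list too was assembled from genes known for their sex bias, so its direction is no independent evidence. The median log2 difference was 1.74, and with males 1 and 3 left out 20 were higher and none lower, with a median of 1.31. The exception, Ttc39c, was called in the male direction on both diets (-1.38 ± 0.35 on malnutrition, adjusted p = 0.0104), and its malnourished difference was not called without males 1 and 3 (-0.34).

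The largest female differences were in the Sult2a cluster of chromosome 7, which encodes cytosolic sulfotransferases that add sulfate to bile acids and steroids such as DHEA. Sult2a1 was at 340, 457, 472, 471 and 291 CPM in malnourished females 1 to 5 and at 0.0392, 6.15, 0.13, 2.89 and 0.273 CPM in malnourished males 1 to 5. The separation of the sexes was a condition of the choice, and among the males 2 and 4 were highest. The difference was 7.73 ± 0.89 (adjusted p = 1.25e-05) and 8.96 without male 2. Sult2a2 was at 267 to 416 CPM in the females and at 0.0392, 34.3, 0.13, 17.8 and 1.76 CPM in the males (5.04 ± 0.92, adjusted p = 0.00113; 6.19 without male 2). Sult2a3 and Sult2a5 differed by 8.26 ± 0.69 (adjusted p = 2.66e-07) and 6.16 ± 0.73 (adjusted p = 1.83e-05), and by 10.81 and 8.27 without male 2. With both males 1 and 3 left out the 4 values were 7.04, 4.32, 7.58 and 5.46 for Sult2a1, Sult2a2, Sult2a3 and Sult2a5, and with limma-voom, which weights libraries by quality, they were 9.86, 8.32, 9.60 and 8.58. A further member, Sult2a8, which is male-typical, ran the other way at 73.4 to 132 CPM in the females and 245 to 779 CPM in the males (-2.30 ± 0.29, adjusted p = 2.98e-05; -1.63 without males 1 and 3).

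Other genes with large female differences encode proteins of varied function. Hamp2, a hepcidin paralogue, was at 491, 399, 246, 274 and 137 CPM in the females and at 24.8, 24.6, 40.9, 86.3 and 87.8 CPM in the males (2.55 ± 0.41, adjusted p = 0.00038). The steroid-oxidizing P450 gene Cyp3a16 was at 21.7, 2.99, 8.78, 10.9 and 10.6 CPM against 0.666 to 1.44 CPM (3.38 ± 0.53, adjusted p = 0.000298). Aldh3b3, an aldehyde dehydrogenase gene, was at 15.8 to 26.4 CPM in the females and at 0.157, 6.11, 0.228, 6.26 and 2.15 CPM in the males (2.80 ± 0.53, adjusted p = 0.0014; 2.11 without males 1 and 3, 4.31 with limma-voom). Males 1 and 3 were the lowest males for Aldh3b3, as for Sult2a1 and Sult2a2 above, whereas males 1 and 2 were lowest for Hamp2. The aldo-keto reductase gene Akr1b7 differed by 2.60 ± 0.48 (adjusted p = 0.00115; 3.28 without male 2). Sorcs2, a sorting receptor gene, was at 3.23 to 10.1 CPM in the females, at 2.19 CPM in male 2 and at 0.358 to 0.576 CPM in the other males (3.00 ± 0.43, adjusted p = 0.000126, and 3.86 without male 2). Sorcs2 was not called on the control diet (0.04 ± 0.65). Its interaction was not called either, so a change of the sex difference with diet was not shown.

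Of 30 tested autosomal regulators of the growth hormone axis 3 were higher in malnourished females (Cux2, Trim24 and Tox) and 5 were higher in males (Bcl6, Nfil3, Zbtb20, Ghr and Igf1), where 7.29% and 10.5% of all genes were called. The median of the list was 0.00, and without male 4 the counts were 6 and 6. Bcl6, the repressor of female-typical genes in male liver, was at 144, 39.3, 126, 29.6 and 86.2 CPM in malnourished males 1 to 5 and at 12, 11.4, 10.1, 6.71 and 11.4 CPM in malnourished females 1 to 5. The groups were well apart, with a difference of -3.04 ± 0.42 (adjusted p = 7.71e-05) and -2.32 without males 1 and 3. On the control diet the difference was -1.59 ± 0.41 (adjusted p = 0.0111), and these differences were not shown to differ from each other (interaction adjusted p = 0.201). RefSeq (build GRCm38.p6) lists 2 promoter windows for Bcl6. One of them, the 250 bases before a start on the minus strand at chr16:23981284-23981533, is shown because it holds 3 copies of the palindrome TTCNNNGAA to which STAT5 binds, beginning 168, 122 and 88 bases before the start. Capitals mark these copies.
Bcl6 upstream window: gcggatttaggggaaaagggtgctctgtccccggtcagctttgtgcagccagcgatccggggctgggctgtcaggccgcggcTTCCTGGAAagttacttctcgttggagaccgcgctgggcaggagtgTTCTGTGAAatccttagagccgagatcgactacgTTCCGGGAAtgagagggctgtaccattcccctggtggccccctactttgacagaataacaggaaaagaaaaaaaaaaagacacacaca
The other window of Bcl6 held 1 copy. The palindrome reads the same on both strands, and 6.11% of 10093 promoters of tested autosomal genes held at least 1 copy in the same 250 bases. Over the full windows of 300 bases, which run to 50 bases after the start, the share was 7.05% of all promoters (exact 95% interval 6.56 to 7.57), 5.85% of 701 promoters of genes higher in malnourished females (4.23 to 7.85) and 7.26% of 1075 promoters of genes higher in malnourished males (5.78 to 8.97). The letters were thus about as frequent in both sets as in promoters at large. A match describes the sequence and is no evidence of a bound site.

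Nfil3, which represses genes with D-box elements, was at 62.4, 42.1, 70.7, 41.5 and 63.6 CPM in the males and at 22.6, 17, 13.9, 13.3 and 24 CPM in the females (-1.63 ± 0.23, adjusted p = 9.22e-05). Zbtb20, a zinc-finger repressor of liver, differed by -0.96 ± 0.18 (adjusted p = 0.0013). The growth hormone receptor gene Ghr was at 548, 329, 515, 344 and 317 CPM in the males and at 277, 239, 239, 206 and 260 CPM in the females (-0.75 ± 0.14, adjusted p = 0.00133). Igf1, the circulating growth factor induced by growth hormone, was at 557, 377, 443, 532 and 302 CPM in the males and at 263, 252, 256, 222 and 327 CPM in the females. Here male 5 lay below female 5, and the difference of -0.74 ± 0.16 (adjusted p = 0.00388) was not called without males 1 and 3 (-0.60, adjusted p = 0.0531). Igf1 showed no called sex difference on the control diet (0.16 ± 0.17, adjusted p = 0.566), and the interaction missed the threshold (-0.90 ± 0.24, adjusted p = 0.0502).

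Cux2, the female repressor of male-typical genes, was at 38.4, 80.6, 21.6, 49.2 and 17.3 CPM in malnourished females and at 1.14, 4.48, 0.912, 20 and 10 CPM in malnourished males, so that male 4 overlapped the females. The difference was 2.50 ± 0.61 (adjusted p = 0.00811), 3.31 without male 4 and 1.86 without males 1 and 3. Trim24, a nuclear receptor cofactor, was at 46.3 to 51.5 CPM in the females and at 20.1, 31.2, 16.4, 28.2 and 30.7 CPM in the males (0.94 ± 0.17, adjusted p = 0.00108). Tox, a nuclear DNA-binding protein gene with female bias in liver, differed by 0.73 ± 0.22 (adjusted p = 0.0249), a call lost without any 1 of females 1 and 4 or males 1 and 3 (adjusted p = 0.0512 to 0.0759). Stat5b, the carrier of the growth hormone signal, was not called (-0.34 ± 0.15, adjusted p = 0.137). Cish, a feedback inhibitor induced by STAT5, was at 4.94, 15.9, 2.8, 98.1 and 14.1 CPM in the males and at 84.3, 32.3, 74.7, 31.2 and 65.6 CPM in the females. Male 4 alone was above the females, and the difference was 1.09 ± 0.67 (adjusted p = 0.283) with male 4 and 2.61 (adjusted p = 0.00304) without, and it was 2.42 (adjusted p = 0.0158) with limma-voom.

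The calls on both diets were compared, which by itself does not test a change between the diets. On the control diet 1222 autosomal genes were higher in females (9.43%) and 1126 in males (8.69%), 18.1% together. The male count fell to 740, 680, 653 and 735 when control female 1 or control males 1, 2 or 3, respectively, were left out. Called in the female direction on both diets were 371 genes, 39.3% of the malnourished list and 30.4% of the control list. Called in the male direction on both were 429 genes, 31.6% and 38.1% of those lists. With malnourished males 1 and 3 left out the sum of both counts was 324 rather than 800. At least 2-fold higher in control females were 348 genes (2.69%; 4.68% with both directions) and in control males 259. Of the 348, 120 were also called higher in malnourished females, and of the 259, 119 were called higher in malnourished males. By the interaction test the difference was smaller on malnutrition for 77 of the 348 and 52 of the 259, and larger for 0 and 4. For most genes without a malnourished call, a loss of the sex difference was therefore not shown.

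**Figure D2:**
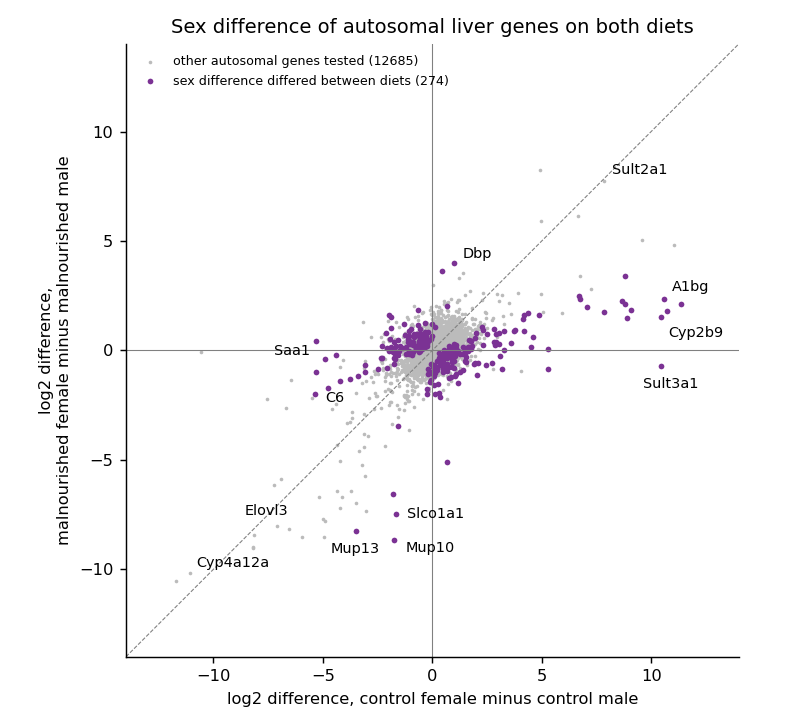
The log2 sex difference (female minus male) of each tested autosomal gene on the control diet (x axis) and on malnutrition (y axis), with the dashed line marking equal differences and the 274 genes whose sex difference differed between diets in purple. Genes such as A1bg, Cyp2b9 and Sult3a1 lay near the x axis, while Slco1a1, Mup10 and Mup13 lay below the dashed line.

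The sex difference itself differed between the diets for 274 genes (2.11%), 111 with an interaction above 0 (0.857%) and 163 below (1.26%). Of the 274, 192 were at least 2-fold in size (1.48% of those tested). These counts were 375 and 455 without the 3 libraries whose label numbers start with 62. They ranged from 62 and 93 (without control male 2) to 237 (without control female 5) and 369 (without control male 4), and the count above 0 was also 68, 72 and 70 without control female 1, malnourished female 1 and malnourished female 3. In 82 of the 111 and 111 of the 163 genes the sex difference was smaller on malnutrition.

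Among female-biased liver genes 22 of 36 had an interaction below 0 (1.26% of all genes). The list's median difference was 6.29 on the control diet and 1.74 on malnutrition. The list was chosen for known sex bias and with earlier results of these data known. The P450 gene Cyp2b9 was at 544, 545, 581, 634 and 551 CPM in malnourished females and at 16.5, 438, 30.2, 266 and 256 CPM in malnourished males, against 0.182 to 1.04 CPM in control males. Malnourished males 1 and 3 lay low and the other 3 approached the females. The malnourished sex difference was 1.503 ± 0.56 (adjusted p = 0.0659; 2.00 and adjusted p = 0.0231 without male 2), the control difference 10.47 ± 0.97, and the interaction -8.97 ± 1.04 (adjusted p = 0.000126; -10.01 without control male 4). A1bg, a secreted protein of the immunoglobulin family, was at 49.1, 10.7, 11.7, 10.8 and 19.8 CPM in malnourished females and at 0.98, 3.6, 0.489, 6.37 and 8.16 CPM in malnourished males, where control females held 98 to 201 CPM and control males at most 0.202 CPM. Its malnourished difference was 2.37 ± 0.53 (adjusted p = 0.0046; 1.75 without female 1), and the interaction -8.23 ± 1.11 (adjusted p = 0.000293; -8.85 without malnourished female 1 and -9.03 without control male 4).

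Sult3a1, an amine sulfotransferase gene, was at 6.27 to 29.4 CPM in control females and at most 0.479 CPM in any malnourished female. Its interaction was -11.18 ± 1.71 (adjusted p = 0.00083), ranging from -9.84 without malnourished male 2 to -13.04 without malnourished female 5, with -12.87 without control male 4. This gene was low in both malnourished sexes. Cyp2b13, Acot3 and Slc22a26 (a P450, an acyl-CoA thioesterase and an organic anion transporter gene) had interactions of -9.21 ± 1.74 (adjusted p = 0.00525), -7.40 ± 1.17 (adjusted p = 0.0011) and -7.20 ± 1.03 (adjusted p = 0.00052). Those of Cyp2b13 and Acot3 were -10.49 and -8.95 without control male 4, and that of Cyp2b13 was -8.56 without malnourished male 2. Between the malnourished sexes Slc22a26 differed by 1.85 ± 0.52 (adjusted p = 0.0192; 1.21 without males 1 and 3), and Acot3 was not called (1.501 ± 0.53, adjusted p = 0.0562), but passed without control female 1, malnourished female 5, or malnourished male 4 or 5 (adjusted p = 0.0279 to 0.0485). Cyp2b13 differed by 2.14 ± 0.71 (adjusted p = 0.0421), a call lost without any 1 of the 5 malnourished females, malnourished males 3 or 5, control female 3 or control male 3 (adjusted p up to 0.082). It was also lost with DESeq2 (adjusted p = 0.115), in a fit of the 10 malnourished libraries alone (0.106) and without the 3 libraries whose label numbers start with 62 (0.0759), and the difference was 2.78 without malnourished male 2, 1.42 without males 1 and 3 and 4.84 with limma-voom. The P450 genes Cyp2a22 and Cyp3a16 were called in females on both diets and also had smaller differences on malnutrition (interactions -4.39 ± 0.81, adjusted p = 0.00422, and -5.41 ± 0.96, adjusted p = 0.00341). With limma-voom the interactions of Cyp2a22 (adjusted p = 0.0543), Cyp3a16 (0.0523), Cyp2b13 (-6.61, adjusted p = 0.189) and Acot3 (0.0836) were not called, and the malnourished differences of Cyp2b9 (2.72, adjusted p = 0.0022) and Acot3 (2.31, adjusted p = 0.00579) were called. Cyp2a22 was at 309, 332, 369, 503 and 237 CPM in malnourished females and at 11.6, 126, 16.8, 131 and 54.8 CPM in malnourished males (2.36 ± 0.49, adjusted p = 0.00286; 1.75 without males 1 and 3), with 0.654 to 1.55 CPM in control males.

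Female-typical regulators also had smaller sex differences on malnutrition. Trim24 was at 11.4 to 16.9 CPM in control males (interaction -1.38 ± 0.25, adjusted p = 0.00404), and Tox had an interaction of -2.16 ± 0.34 (adjusted p = 0.00108). The interaction of Cux2 was -4.21 ± 1.07 (adjusted p = 0.0436), a call lost without any 1 of control females 1 to 3, control males 1 to 3, malnourished females 1, 3, 4 and 5 or malnourished males 4 and 5 or with limma-voom (-3.18, adjusted p = 0.241), with -3.43 without malnourished male 4. The xenobiotic receptor gene Nr1i3, also known as CAR, which drives Cyp2b genes, was at 51 to 70.1 CPM in malnourished females and 56.7 to 79.5 CPM in malnourished males, against 14.3 to 28.6 CPM in control males. Its malnourished sex difference of -0.12 ± 0.15 was not called (adjusted p = 0.619), and the interaction was -1.61 ± 0.22 (adjusted p = 0.000347).

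Other genes differed more between the malnourished sexes than between the control sexes. Slco1a1, at 51 to 220 CPM in control females and at most 3.18 CPM in malnourished females, had an interaction of -5.81 ± 0.73 (adjusted p = 0.000177). Mup10 and Mup13 had interactions of -6.92 ± 1.01 (adjusted p = 0.000592; -8.30 without malnourished female 5) and -4.76 ± 0.89 (adjusted p = 0.00477). Without malnourished males 1 and 3 the 3 values were -4.89, -5.54 and -2.81. Male-biased liver genes as a list had a median difference of -3.09 on the control diet and -2.15 on malnutrition. In the interaction 5 of 28 were called (2.11% of all genes).

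Among the largest interactions above 0 were male-typical genes whose difference shrank. Cyp7b1, the oxysterol hydroxylase of the alternative bile acid pathway, was at 77.9, 10.5, 26.5, 13.8 and 12 CPM in malnourished males and at 8 to 9.3 CPM in malnourished females, with 257 to 376 CPM in control males. Its malnourished difference was -1.71 ± 0.42 (adjusted p = 0.00815), -0.87 without male 1 and not called without males 1 and 3 (-0.49), and its interaction 3.06 ± 0.60 (adjusted p = 0.00672; 3.87 without malnourished male 1). C6, of the terminal complement complex, was at 108, 16.2, 50.6, 14 and 24.8 CPM in malnourished males and at 13.8 to 19.6 CPM in malnourished females, with 474 to 703 CPM in control males. C6 was called with male 1 (-1.39 ± 0.39, adjusted p = 0.0179) and not without that mouse (-0.70, adjusted p = 0.0891), and its interaction was 2.83 ± 0.55 (adjusted p = 0.00701; 3.50 without malnourished male 1). For both genes males 2, 4 and 5 lay near the females. Tff3, a trefoil peptide gene, had a malnourished difference of -1.99 ± 0.47 (adjusted p = 0.0069; -1.17 and not called without males 1 and 3) and an interaction of 3.38 ± 0.68 (adjusted p = 0.00858). The acute phase genes Saa1 and Saa2 and the chemokine gene Cxcl1 had interactions of 4.55 ± 0.80 (adjusted p = 0.00311), 4.18 ± 0.94 (adjusted p = 0.0212) and 5.72 ± 1.07 (adjusted p = 0.00478). These rested on the control males, whose Saa1 ranged from 64.7 to 2254 CPM, while malnourished mice of both sexes lay between 7.68 and 27.9 CPM. Without control male 1 the 3 values were 3.70, 3.01 (adjusted p = 0.0671) and 4.18, and with limma-voom Saa2 (3.20, adjusted p = 0.109) and Cxcl1 (4.49, adjusted p = 0.107) were not called. Smpd3, a neutral sphingomyelinase gene, was higher in malnourished females (1.60 ± 0.45, adjusted p = 0.0189) and lower in control females (-1.98 ± 0.44, adjusted p = 0.00398), with an interaction of 3.58 ± 0.63 (adjusted p = 0.00303). Its malnourished call was lost without female 3 (1.09, adjusted p = 0.08), without males 1 and 3 (1.63, adjusted p = 0.084) and with limma-voom (adjusted p = 0.0696).

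In all 26 genes were called in opposite directions on the diets, 13 each way. This count ranged from 8 without malnourished female 3 to 44 without control female 5, and was 10 to 17 without malnourished females 1, 2 or 4, malnourished male 3, control females 1, 2 or 3 or control males 2 or 3. Hpgd, the prostaglandin dehydrogenase gene, was at 70.3, 76.3, 80.8, 79.8 and 82.2 CPM in malnourished females and at 105, 112, 98.8, 128 and 105 CPM in malnourished males (-0.49 ± 0.12, adjusted p = 0.0084). In control mice it ran the other way (0.99 ± 0.13; interaction -1.49 ± 0.18, adjusted p = 0.000126). The N-methyltransferase gene Inmt also turned, at 632, 597, 541, 555 and 391 CPM in malnourished females and 928, 740, 1059, 779 and 1008 CPM in malnourished males (-0.73 ± 0.14, adjusted p = 0.00167; interaction -1.32 ± 0.21, adjusted p = 0.00108). Tle3, a transcriptional corepressor gene, turned in the other sense (0.87 ± 0.20 on malnutrition, adjusted p = 0.00552, and -1.08 ± 0.21 on the control diet; interaction 1.95 ± 0.29, adjusted p = 0.00069), its malnourished call lost without males 1 and 3 (0.70, adjusted p = 0.0764). So did the inositol phosphatase gene Synj2 (1.16 ± 0.21, adjusted p = 0.00126, and -0.66 ± 0.22; interaction 1.81 ± 0.31, adjusted p = 0.00233).

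Circadian clock genes were called in both directions. Of 17 tested, 6 were higher in malnourished females and 5 in malnourished males (7.29% and 10.5% of all genes). On the control diet the counts were 2 and 1 (9.43% and 8.69% of all genes). With males 1 and 3 left out 4 and 5 were called. Dbp, Per3, Ciart, Tef and Per2 were among those higher in females. Dbp, a D-box activator and a direct output of the clock, was at 77.8, 53.1, 47.7, 71.5 and 28.3 CPM in malnourished females 1 to 5 and at 4.19, 2.84, 3.45, 5.61 and 1.49 CPM in malnourished males 1 to 5. The lowest female lay far above the highest male, with a difference of 4.00 ± 0.52 (adjusted p = 5.07e-05). Per3, of the period family of repressors, was at 47.1, 38.8, 40.1, 37.7 and 24.6 CPM in the females and at 2.55, 2.91, 3.03, 5.75 and 2.21 CPM in the males (3.52 ± 0.44, adjusted p = 2.98e-05). Ciart, a repressor of CLOCK and ARNTL, differed by 2.55 ± 0.58 (adjusted p = 0.00502), and the D-box activator Tef by 1.40 ± 0.22 (adjusted p = 0.000333). Per2 differed by 1.44 ± 0.40 (adjusted p = 0.0178), a call lost without males 1 and 3 (1.54, adjusted p = 0.0766).

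Arntl, Npas2, Clock and Cry1 were among those higher in males. Arntl, also known as Bmal1, an activator of the clock, was at 26.7, 29.4, 27.2, 20.8 and 31.9 CPM in the males and at 10.5, 7.93, 6.42, 4.53 and 11.7 CPM in the females (-1.73 ± 0.34, adjusted p = 0.002). Npas2, another activator, was at 15.8, 21.8, 11.6, 13.8 and 18.5 CPM against 3.4, 3.37, 3.28, 2.02 and 5.18 CPM (-2.23 ± 0.33, adjusted p = 0.000165). Clock differed by -1.03 ± 0.17 (adjusted p = 0.000392) and the repressor gene Cry1 by -0.99 ± 0.20 (adjusted p = 0.00206). For these genes males 1 and 3 did not stand apart from the other males. The interaction was called for Dbp alone among the 17 (3.02 ± 0.69, adjusted p = 0.022), and was lost without control male 3 (2.66, adjusted p = 0.0588) and with limma-voom (2.74, adjusted p = 0.0946). Tef, Ciart, Per2, Arntl, Clock and Cry1 lie outside the rule for named genes and were named after their values were seen.

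Clock genes oscillate over the day, so their levels depend on the hour of collection, which is not given in the labels and cannot be told apart from sex here. The upstream windows of 2 clock genes are shown because they hold the elements through which the clock acts, chosen after the differences had been seen: Ciart, 250 bases before its start on the minus strand at chr3:95882229-95882478, with the E-box CACGTG bound by CLOCK and ARNTL in capitals, and Per3, 250 bases before its start on the minus strand at chr4:151044666-151044915, with the D-box TTATGTAA bound by DBP, TEF and NFIL3 in capitals.
Ciart upstream window: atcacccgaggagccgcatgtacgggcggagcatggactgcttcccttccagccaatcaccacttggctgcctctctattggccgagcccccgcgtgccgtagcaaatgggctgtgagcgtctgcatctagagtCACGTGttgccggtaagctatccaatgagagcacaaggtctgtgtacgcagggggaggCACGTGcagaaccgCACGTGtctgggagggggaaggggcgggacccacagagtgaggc
Per3 upstream window: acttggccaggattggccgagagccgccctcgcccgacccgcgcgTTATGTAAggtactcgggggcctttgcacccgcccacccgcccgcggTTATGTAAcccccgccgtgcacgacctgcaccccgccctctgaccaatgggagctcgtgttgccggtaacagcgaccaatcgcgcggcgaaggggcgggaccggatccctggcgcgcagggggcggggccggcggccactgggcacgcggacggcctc
Ciart held 3 E-boxes, beginning 116, 58 and 44 bases before the start, and Per3 held 2 D-boxes, beginning 205 and 158 bases before. CACGTG, which reads the same on both strands, was found in 8.16% of the 10093 promoters over the same 250 bases. TTATGTAA or TTACGTAA on either strand was found in 0.614%. Over 300 bases CACGTG was found in 10.3% of promoters of genes higher in malnourished females and 9.49% of those higher in malnourished males, against 9.77% of all.

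**Figure D3:**
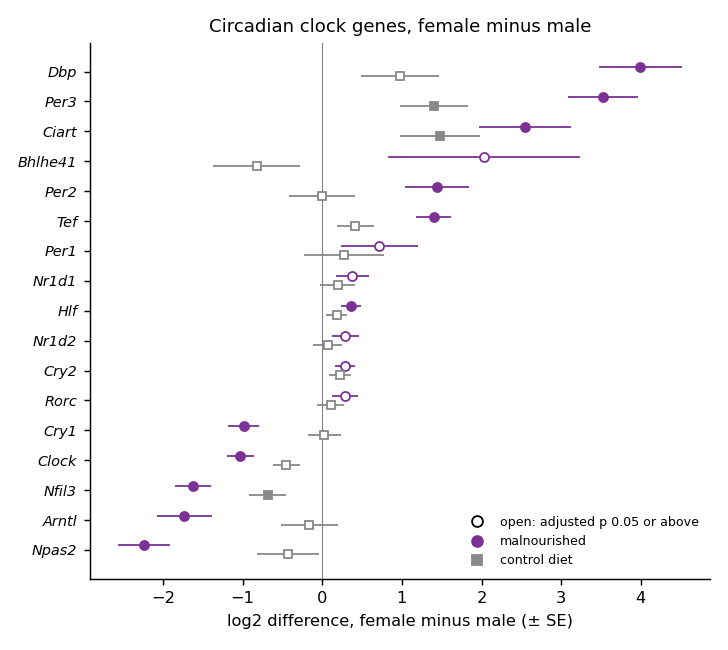
Log2 difference (female minus male, ± SE) of the 17 clock genes in malnourished mice (purple circles) and control mice (grey squares), open where adjusted p was 0.05 or above. In malnourished mice Dbp, Per3 and Ciart lay above 2.5 and Npas2 below -2, and the grey values lay closer to 0 for most genes.

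Many lipid synthesis genes were called higher in malnourished females, though the sexes overlapped in the summed lists. Of 26 tested lipogenesis genes 13 were higher in females and 2 in males (background 7.29% and 10.5%), with a median of 0.71. On the control diet 3 and 2 were called, with a median of 0.06. Fasn, which encodes fatty acid synthase, was at 2689, 4977, 2930, 2167 and 1632 CPM in malnourished females and at 437, 1192, 694, 1020 and 667 CPM in malnourished males (1.84 ± 0.38, adjusted p = 0.00272). Srebf1, the transcriptional activator of lipogenesis, was at 443, 626, 518, 739 and 331 CPM against 214, 187, 143, 133 and 229 CPM (1.55 ± 0.29, adjusted p = 0.00119). Every female exceeded every male for both genes, which were picked with their differences known (11.8% of all genes did not overlap). The summed list overlapped, at 17831 to 34543 CPM in malnourished females and 13241 to 22215 CPM in malnourished males. Female 5 was the lowest female and lay below males 2, 4 and 5.

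Pnpla3, a lipid droplet protein gene under SREBP1 control, was at 214, 279, 249, 80.2 and 105 CPM in the females and at 12.1, 29.5, 19, 67.9 and 22.7 CPM in the males (2.62 ± 0.51, adjusted p = 0.00179). Thrsp, which promotes fatty acid synthesis, differed by 1.85 ± 0.37 (adjusted p = 0.00211), and the desaturase gene Scd2 by 1.55 ± 0.31 (adjusted p = 0.00197). None of these interactions was called: they were 1.18 ± 0.54 for Fasn (adjusted p = 0.277), 0.67 ± 0.41 for Srebf1 (adjusted p = 0.44), 0.31 ± 0.72 for Pnpla3 (adjusted p = 0.878) and 1.94 ± 0.52 for Thrsp (adjusted p = 0.0577). A larger sex difference on malnutrition was therefore not shown for them.

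Cholesterol synthesis and uptake genes, the targets of SREBP2, gave 13 of 22 higher in malnourished females and 0 in males (7.29% and 10.5% of all genes). Their median was 0.68. On the control diet 0 of 22 were called with edgeR (4 at an unadjusted p under 0.05, 1 called with DESeq2 and 1 with limma-voom). The control median was 0.26, in the same direction. The interaction was called for 1 gene and not for 21, so a larger sex difference on malnutrition was not shown for most of the list. Srebf2, the transcriptional activator of the pathway, was at 85, 88.1, 80.5, 84.8 and 86.2 CPM in the females and at 52.4, 67.6, 39.8, 55.8 and 50.5 CPM in the males (0.67 ± 0.12, adjusted p = 0.000685). The females were closely grouped, and males 2 and 4 were the highest males. The summed list overlapped, at 2673 to 3833 CPM in malnourished females and 1659 to 2905 CPM in malnourished males. Female 4 was the lowest female and lay below males 2 and 4. Mvk and Mvd, which encode enzymes of the mevalonate pathway, differed by 0.86 ± 0.17 (adjusted p = 0.00159) and 1.52 ± 0.34 (adjusted p = 0.00478). Mvd was not called without males 1 and 3 (1.15, adjusted p = 0.0619). Fasn, like Ttc39c and Sult2a8 above and Cyp7a1 among the bile acid genes, was named after its values were seen.

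With malnourished males 1 and 3 left out, 6 lipogenesis genes were higher and 1 lower, and 3 cholesterol genes were higher, the medians staying at 0.63 and 0.51. Without male 3 alone the counts were 9 and 1, and 8. Clock genes differed in these same mice (the Dbp and Arntl values above), and their part in the lipid results was not tested.

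**Figure D4:**
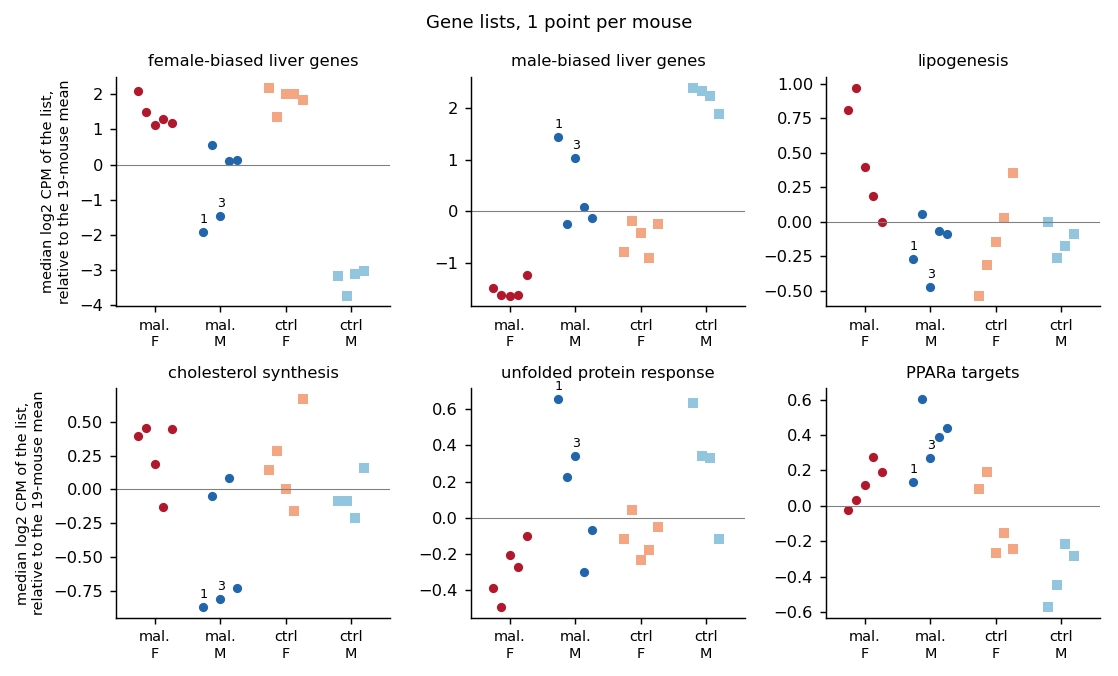
Median log2 CPM over the tested members of 6 gene lists in each mouse, relative to each gene's mean over all 19 mice, by group as above, with malnourished males 1 and 3 marked. The cholesterol list lay at -0.87, -0.81 and -0.73 in malnourished males 1, 3 and 5 and at -0.05 and 0.08 in males 2 and 4. Malnourished female 4, at -0.13, lay below males 2 and 4. The female-biased and male-biased lists split the malnourished males into the same males 1 and 3 against the rest.

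Pck1 and part of the PPARα targets were higher in malnourished males. Over all genes 7.29% were higher in malnourished females and 10.5% in malnourished males. Pck1, the rate-controlling enzyme of gluconeogenesis, was at 3139, 2483, 2832, 949 and 1635 CPM in malnourished males and at 871, 432, 201, 162 and 682 CPM in malnourished females (-2.23 ± 0.41, adjusted p = 0.00108). No female reached the lowest male. Of 22 tested genes of gluconeogenesis and glycolysis 3 were higher in females and 2 in males, among the former the pyruvate kinase gene Pklr (1.01 ± 0.23, adjusted p = 0.00483; 0.93 and adjusted p = 0.0506 without males 1 and 3) and the glucose 6-phosphate transporter gene Slc37a4 (0.49 ± 0.13, adjusted p = 0.0163). Of 48 tested targets of PPARα, the fatty acid-sensing receptor that drives oxidation in fasting, 13 were higher in malnourished males and 2 in malnourished females, with a median of -0.33. On the control diet the balance ran the other way, 17 higher in females and 1 in males (9.43% and 8.69% of all genes). An interaction below 0 was called for 12 genes of the list (1.26% of all genes). Cyp4a32, a fatty acid hydroxylase gene, was at 63.2, 49.1, 92.5, 42.8 and 57.3 CPM in malnourished males and at 15.9, 13.5, 14.9, 13.9 and 17.7 CPM in malnourished females (-2.01 ± 0.25, adjusted p = 3.22e-05; interaction -1.78 ± 0.36, adjusted p = 0.00913). Angptl4, the secreted inhibitor of lipoprotein lipase, was at 265, 206, 257, 103 and 167 CPM against 63.3, 84.2, 48.5, 67.5 and 70.6 CPM (-1.58 ± 0.30, adjusted p = 0.00151). The fasting-induced factor Creb3l3 differed by -0.51 ± 0.12 (adjusted p = 0.00617). With males 1 and 3 left out 9 PPARα targets were higher in males and 0 in females. The part of the clock in the Pck1 and PPARα results was not tested either.

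Of 30 tested nuclear receptors, named in the title of the study, 1 was higher in malnourished females (Pparg) and 3 in malnourished males (Ppard, Rora and Thrb), where 7.29% and 10.5% of all genes were called, with a median of 0.01. Without males 1 and 3 the counts were 0 and 2, and with library totals alone 3 and 2. Ppard, a fatty acid receptor, was at 27, 22.7, 22.2, 14.8 and 26.3 CPM in the males and at 10.3, 11.3, 9.39, 8.67 and 9.72 CPM in the females (-1.20 ± 0.18, adjusted p = 0.000206). Rora, which activates Arntl and other clock genes, was at 55.9, 64.9, 70.2, 48.5 and 41.3 CPM against 30.9, 29.6, 30.5, 21.7 and 40.2 CPM (-0.88 ± 0.17, adjusted p = 0.00134). The thyroid hormone receptor gene Thrb (-0.45 ± 0.14, adjusted p = 0.0352) was not called with library totals alone (-0.31, adjusted p = 0.137), without males 1 and 3 together (-0.34) or without any 1 of females 3 and 4 or males 1, 2, 3 and 5 (adjusted p up to 0.103). Pparg, the adipogenic receptor, was at 13.2 to 17.6 CPM in the females and 6.43 to 14.4 CPM in the males (0.69 ± 0.23, adjusted p = 0.0406), a call lost without any 1 of the 5 females or males 1, 3 and 5 (adjusted p = 0.0507 to 0.11) and without males 1 and 3 together (0.46).

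Ppara was at 82.6, 113, 52.9, 30.5 and 88.9 CPM in the males and at 62, 58.5, 61.9, 59.7 and 91.3 CPM in the females, and the bile acid receptor gene Nr1h4, also known as FXR, at 160, 96.9, 172, 176 and 169 CPM and at 126, 139, 128, 163 and 117 CPM. Both overlapped between the sexes and neither was called (-0.14 ± 0.30, adjusted p = 0.782, and -0.20 ± 0.15, adjusted p = 0.371). The estrogen receptor gene Esr1, higher in control females (1.19 ± 0.23, adjusted p = 0.00146), did not differ measurably in malnourished mice (0.00 ± 0.22, adjusted p = 0.995), and the interaction missed the threshold (-1.19 ± 0.32, adjusted p = 0.0535).

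Bile acid synthesis genes were divided between the sexes, with 2 of 15 higher in malnourished females and 7 in malnourished males (median -0.40). The shares over all genes were 7.29% and 10.5%. Cyp7a1, the rate-limiting enzyme of the classical pathway, was at 33.6, 53, 78.3, 121 and 56.9 CPM in the females and at 24.1, 1.6, 4.82, 26 and 13.5 CPM in the males (2.30 ± 0.66, adjusted p = 0.0208). The groups were apart, but the call was lost without female 4 (1.99, adjusted p = 0.058) or male 3 (2.08, adjusted p = 0.0612) and without males 1 and 3 (2.34, adjusted p = 0.0881). Cyp7a1 is known to oscillate over the day, and the part of collection hour was not tested. Scp2, the peroxisomal thiolase that shortens the sterol side chain, was at 3891, 2454, 2809, 2064 and 3268 CPM in the males and at 1468, 1438, 1449, 1469 and 1682 CPM in the females (-0.95 ± 0.15, adjusted p = 0.000287). Cyp27a1, of the alternative pathway, and Akr1c6, a hydroxysteroid dehydrogenase gene, differed by -0.63 ± 0.13 (adjusted p = 0.00276) and -0.76 ± 0.14 (adjusted p = 0.00109). With males 1 and 3 left out 0 of 15 genes were higher in females and 3 in males.

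Among conjugation enzymes, sulfotransferases leaned to malnourished females and glucuronosyltransferases to malnourished males, while glutathione S-transferases were called in both directions. Over all genes 7.29% were higher in malnourished females and 10.5% in malnourished males. Of 13 sulfotransferase genes that passed the filter, out of 18, 6 were higher in malnourished females, 5 of them of the Sult2a cluster, and 2 in males. Of 15 UDP-glucuronosyltransferase genes 1 was higher in females and 8 in males (median -0.58). Ugt1a9 was at 32.6, 41.8, 23.8, 19.4 and 21.7 CPM in malnourished males and at 6.92, 9.46, 4.73, 7.25 and 3.77 CPM in malnourished females (-2.12 ± 0.26, adjusted p = 2.66e-05). It did not differ measurably between control sexes (0.36 ± 0.27, adjusted p = 0.385), and the interaction was -2.48 ± 0.38 (adjusted p = 0.000813). Ugt1a genes share their 3′ exons, so that reads there cannot be assigned to 1 member. Ugt2b1, a male-typical gene, was at 536, 222, 392, 257 and 213 CPM against 107, 112, 102, 93.7 and 103 CPM (-1.65 ± 0.21, adjusted p = 3.98e-05), and Ugt2a3 differed by -0.71 ± 0.11 (adjusted p = 0.000274). Of 23 glutathione S-transferase genes 5 were higher in females, 4 were higher in males and 14 were not called. With males 1 and 3 left out the counts were 6 and 2 for sulfotransferases and 0 and 6 for glucuronosyltransferases. For glutathione S-transferases they were then 1 and 3.

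Coagulation genes, the subject of the study, showed small sex differences in malnourished liver. Of 15 tested autosomal procoagulant factors 1 was higher in malnourished females (F7) and 2 in malnourished males (Fgg and Klkb1), of 11 natural anticoagulants 0 and 1 (Pros1), of 8 fibrinolysis genes 1 and 2 (Cpb2 and Hrg), and of 7 vitamin K cycle genes 1 (Nqo1) and 1 (Cyp4f14). The medians were -0.09, 0.03, 0.22 and 0.08. Over all autosomal genes the shares called were 7.29% and 10.5%. Procoagulant factors build the fibrin clot, anticoagulants restrain it, fibrinolysis dissolves it and the vitamin K cycle activates several members of the other lists.

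F7, the trigger of the extrinsic pathway, was at 158, 141, 128, 130 and 120 CPM in the females and at 116, 95.3, 82.8, 92.2 and 129 CPM in the males, overlapping through male 5 and female 5 (0.40 ± 0.11, adjusted p = 0.0209). Fgg, the fibrinogen gamma chain, was at 3768, 2994, 3329, 3038 and 4032 CPM in the females and at 4963, 5162, 4886, 4630 and 4169 CPM in the males (-0.47 ± 0.14, adjusted p = 0.0224). The alpha and beta chains Fga (-0.32 ± 0.14, adjusted p = 0.135) and Fgb (-0.26 ± 0.12, adjusted p = 0.141) lay in the same direction without a call, whereas on the control diet all 3 chains were called higher in males (-0.69 ± 0.15 for Fga, -0.52 ± 0.13 for Fgb and -0.58 ± 0.15 for Fgg). The interactions of the chains were 0.37 ± 0.21, 0.25 ± 0.18 and 0.10 ± 0.20, none called, so a change of this sex difference with diet was not shown. Klkb1, plasma prekallikrein of the contact pathway, was at 176, 162, 164, 153 and 174 CPM in the females and at 258, 210, 295, 247 and 163 CPM in the males (-0.50 ± 0.15, adjusted p = 0.0224). Prothrombin (F2) did not differ measurably (0.06 ± 0.09, adjusted p = 0.666). None of the 3 called factors kept its call in every fit: F7 lost it without female 1 or male 3 (adjusted p = 0.0634 and 0.07), Fgg without female 2, female 4 or male 3 (adjusted p = 0.0517 to 0.0634) and Klkb1 without female 4, male 1 or male 3 (adjusted p = 0.0559 to 0.0813), and all 3 without males 1 and 3 together. With library totals alone Fgg and Klkb1 were not called (adjusted p = 0.0689 and 0.063).

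Pros1, protein S, the cofactor of activated protein C, was at 50.9, 49.6, 51.2, 44.9 and 48.9 CPM in the males and at 35.7, 34.5, 42.1, 39.1 and 42.6 CPM in the females (-0.34 ± 0.08, adjusted p = 0.00727), not called with library totals alone (-0.19, adjusted p = 0.112) or without males 1 and 3 (adjusted p = 0.0778). Antithrombin (Serpinc1; 0.19 ± 0.08, adjusted p = 0.122) and protein C (Proc; -0.09 ± 0.10, adjusted p = 0.57) were not called, though Serpinc1 was with library totals alone (0.33, adjusted p = 0.00656) and with DESeq2 (adjusted p = 0.0208). Cpb2, the fibrinolysis inhibitor TAFI, was at 445, 311, 383, 250 and 290 CPM in the males and at 257, 232, 244, 223 and 251 CPM in the females (-0.48 ± 0.13, adjusted p = 0.0128). Hrg, a plasminogen-binding glycoprotein, differed by -0.36 ± 0.10 (adjusted p = 0.0183), with no call without male 1 (-0.28, adjusted p = 0.0587) or with library totals alone (-0.22, adjusted p = 0.099), and neither Cpb2 nor Hrg was called without males 1 and 3. Plasminogen (Plg) did not differ measurably (-0.08 ± 0.11, adjusted p = 0.68).

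In the vitamin K list, the quinone reductase gene Nqo1, also a target of NRF2, was at 11.3, 13.7, 11.3, 13 and 9.35 CPM in the females and at 4.43, 8.57, 4.04, 8.76 and 5.19 CPM in the males (0.92 ± 0.20, adjusted p = 0.00381; 0.65 and adjusted p = 0.0539 without males 1 and 3). The P450 gene Cyp4f14 was at 421, 229, 211, 219 and 347 CPM in the males and at 193, 139, 144, 114 and 175 CPM in the females (-0.90 ± 0.18, adjusted p = 0.0024). Neither group overlapped the other for these genes. The sex difference of Cyp4f14 was larger on malnutrition (interaction -1.10 ± 0.27, adjusted p = 0.0334), a call lost without control females 1 or 3, control males 1 or 2, malnourished females 2, 3 or 4 or malnourished male 5, each left out alone (adjusted p = 0.0532 to 0.0893). No other member of the 4 lists had a called interaction.

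**Figure D5:**
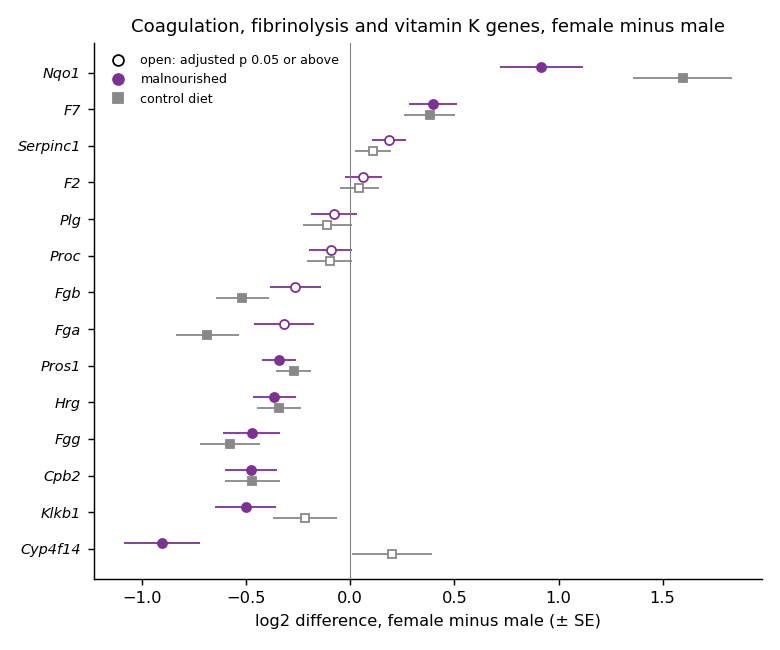
Log2 difference (female minus male, ± SE) of 14 described members of the procoagulant, anticoagulant, fibrinolysis and vitamin K lists in malnourished mice (purple circles) and control mice (grey squares), open where adjusted p was 0.05 or above. Most malnourished values lay within 0.5 of 0, with Nqo1 (0.92) highest and Cyp4f14 (-0.90) lowest.

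Of 23 complement genes 8 were higher in malnourished males and 1 in females (median -0.13), against 10 and 5 on the control diet. The shares over all genes were 10.5% and 7.29% on malnutrition, and 8.69% and 9.43% on the control diet. The interaction was above 0 for 1 complement gene, below 0 for 1 and not called for 21. A change of the sex difference with diet was therefore not shown for most of the list. C8a and C8b, of the terminal complex that forms the membrane pore, were at 1099, 468, 829.3, 387 and 689 CPM and 650, 189, 393, 161 and 278 CPM in malnourished males, and at 120, 108, 127, 98.1 and 215 CPM and 67.2, 46.3, 54.4, 42.8 and 88.9 CPM in malnourished females. All males exceeded all females for both (-2.38 ± 0.26, adjusted p = 9.68e-06, and -2.48 ± 0.32, adjusted p = 3.58e-05, with -1.80 for C8b without males 1 and 3). Both genes were picked by small adjusted p, so this separation is no finding (11.8% of all genes did not overlap). C9 was at 532, 71.2, 366, 108 and 176 CPM against 75, 60.2, 46, 50 and 59.9 CPM, with male 2 inside the female range (-2.11 ± 0.37, adjusted p = 0.000845; -1.02 without males 1 and 3). The mannose-binding lectin gene Mbl1 differed by -0.64 ± 0.13 (adjusted p = 0.00209). With males 1 and 3 left out 0 and 5 complement genes were called, and with library totals alone 5 higher in females and 6 in males. Of 20 acute phase genes 0 were higher in females and 2 in males on malnutrition, against 1 and 10 on the control diet. Their interaction was above 0 for 4 genes (0.857% of all genes), below 0 for 0 and not called for 16.

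Of 17 genes of the unfolded protein response, 8 were higher in malnourished males, 0 in females and 9 were not called (median -0.53). Over all genes 10.5% were higher in malnourished males and 7.29% in malnourished females. Without any 1 of females 2 and 4 or males 1 and 3 the male count was 4 or 5. Sdf2l1, a cofactor of the chaperone BiP, was at 48.7, 23.7, 43.2, 22.9 and 32.1 CPM in the males and at 12.4, 10.5, 15.5, 11.2 and 18.8 CPM in the females (-1.32 ± 0.27, adjusted p = 0.00262). Pdia3, Calr and Dnajc3, which fold and inspect glycoproteins or assist BiP, differed by -0.72 ± 0.15 (adjusted p = 0.00294), -0.65 ± 0.15 (adjusted p = 0.00581) and -0.54 ± 0.12 (adjusted p = 0.00438). Without males 1 and 3, which were the highest males for Sdf2l1 and Pdia3, 0 of 17 genes were called with edgeR (5 at an unadjusted p under 0.05) and the median was -0.27. Of 25 cell cycle genes 5 were higher in females and 1 in males (7.29% and 10.5% of all genes). The female count was 11 without male 2, 3 without male 3, 9 with library totals alone and 8 with limma-voom. The helicase genes Mcm6 and Mcm2 differed by 0.60 ± 0.14 (adjusted p = 0.00519) and 0.72 ± 0.17 (adjusted p = 0.00776), and the cell cycle inhibitor Cdkn1a was at 68.6, 61.2, 45.7, 34.4 and 38.5 CPM in the males and at 12.2, 11.2, 7.8, 10.1 and 18.1 CPM in the females (-2.06 ± 0.53, adjusted p = 0.0114). No cell cycle gene was called with edgeR without males 1 and 3 (5 at an unadjusted p under 0.05). Of 25 oxidative phosphorylation genes 0 were called with edgeR on either diet, with a median of -0.04 in malnourished mice. In malnourished mice 1 had an unadjusted p under 0.05 and 0 were called with DESeq2 or limma-voom, and in control mice 7 had such a p, 1 was called with DESeq2 and 7 with limma-voom. Of 39 urea cycle and amino acid catabolism genes 0 were higher in malnourished females and 6 in males (7.29% and 10.5% of all genes). These counts were 2 and 5 for library totals alone and 0 and 3 without males 1 and 3.

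Markers of other cell types were also examined, where 7.29% of all genes were higher in malnourished females and 10.5% in malnourished males. Of 7 tested B and plasma cell markers 4 were higher in malnourished females, among them Cd79a, Cd22 and Cd79b, which encode parts of or partners to the B cell receptor. Cd79a was at 3.4, 2.59, 3.44, 2.66 and 2.31 CPM in the females and at 1.02, 1.11, 1.76, 1.14 and 1.21 CPM in the males (1.20 ± 0.24, adjusted p = 0.00203). Cd22 differed by 0.70 ± 0.15 (adjusted p = 0.00309) and Cd79b by 0.93 ± 0.23 (adjusted p = 0.00892). The females did not overlap the males for any of the 3 genes. They were picked by small adjusted p, so this separation is no finding (11.8% of all genes did not overlap). All 3 were also called in control females and were called without males 1 and 3. In bulk liver more B cells and more of these RNAs per cell cannot be told apart. The summed B cell markers lay at 15.8 to 22.2 CPM in malnourished females and at 9.04 to 13.3 CPM in malnourished males.

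Summed Kupffer cell markers lay at 924 to 1131 CPM in malnourished females and at 694 to 952 CPM in malnourished males, with 1 of 12 called and a median log2 difference of 0.39. That count was 8 without control female 4 or with library totals alone, 6 without malnourished male 5, with the 10 malnourished libraries alone or without the 3 libraries whose label numbers start with 62, and 0 without any 1 of malnourished females 1, 2, 4 and 5 or malnourished males 1 to 4. On the control diet 12 of 12 were higher in females (9.43% of all genes), with a median of 0.67. The interaction was called for 0 of these 12 genes, so a change of their sex difference with diet was not shown. Sinusoidal endothelial markers lay at 570 to 656 CPM and 466 to 633 CPM, with 0 of 12 called with edgeR (2 at an unadjusted p under 0.05, 1 called with DESeq2, 2 with limma-voom and 3 without malnourished male 5), and stellate cell markers at 597 to 801 CPM and 497 to 633 CPM, with 3 of 14 higher in females, a count of 0 or 1 without any 1 of females 1, 3 and 4 or males 1, 2 and 3, and of 0 with a replicate block. T and NK cell markers lay at 8.97 to 9.70 CPM and 6.30 to 9.68 CPM (2 of 11 higher in females). Hepatocyte markers lay at 170170 to 193479 CPM and 158762 to 210696 CPM (2 of 13 higher in males). The shares over all genes were 7.29% higher in malnourished females and 10.5% in malnourished males. None of the Kupffer, stellate and hepatocyte calls was made with edgeR without males 1 and 3 (1, 4 and 2 genes at an unadjusted p under 0.05). No Kupffer, endothelial, stellate, T cell or B cell marker was at 0 in all 10 mice. The part of these cell types in the other results was not tested.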

How the data were processed

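The samples were 19 mouse livers, each 1 library made from total RNA with a stranded kit, per the labels' protocols. The deposited table held raw counts per protein-coding gene for 21950 lines. Trim Galore, HISAT2, featureCounts and the build mm10 are named in the submitters' processing notes, without versions or roles. Of the gene IDs, 21886 were found in GENCODE M21, which gave symbols and chromosomes. The 64 others were left out of autosomal results. Counts were fitted as deposited with edgeR 4.0.16 (R 4.3.3): trimmed-mean scaling, an expression filter (minimum count 10, minimum total 15), 4 group means over 19 libraries and 15 residual degrees of freedom, with a biological coefficient of variation of 0.179. A quasi-likelihood test gave the malnourished and control sex differences and the difference between these contrasts (interaction), which share no library, with Benjamini-Hochberg adjustment over 13391 genes. The 12959 autosomal genes are reported.

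No 2 libraries of a group agreed within sampling noise. Alternatives were limma 3.58.1 (voom), DESeq2 1.42.0, other scaling and filters, a replicate block and each library left out. Members and gene lists were chosen with earlier results of these data known. Named genes were the 14 largest called differences in each direction with at least 2 CPM on average and no overlap, the 8 largest interactions in each direction, genes called in opposite directions (at most 10), up to 4 called members of each list with the smallest adjusted p, and any member of the regulator, nuclear receptor, coagulation and vitamin K lists. The few genes outside this rule are marked as named after their values were seen. Some genes that the rule names are not reported here. Promoter windows are RefSeq's (GRCm38.p6), 1 per gene, nearest the annotated start. Intervals cover counting error only.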

Additional observations from a re-analysis of the deposited data

Results flagged for a closer look

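Of 228 sets of 5 malnourished libraries examined for a single value standing apart (114 genes, each sex), 20 held one, and chance gives about 1 in 20. Values are CPM, and genes are grouped by mouse. In malnourished male 1, Mup7 stood at 724.9 (the other males 8.83 to 175) and Cyp7b1 at 77.86 (10.5 to 26.6). In malnourished male 2, Sult2a3 stood at 0.5232, Sult2a5 at 1.831, Sult3a1 at 0.752, Sorcs2 at 2.191 and Nr1h4, the lowest of its group, at 96.95. In malnourished male 3, Cd79a stood at 1.759, and in malnourished male 4, Cish stood at 98.11 (the others 2.80 to 15.9) and Per3 at 5.752. In malnourished female 1, A1bg stood at 49.13 (the other females 10.7 to 19.8). In female 2 Cyp4a12b stood at 0.03402, the only count of that gene among the females, and Scd2 at 42.21, and Smpd3 at 7.092 in female 3. In malnourished female 5, Mup13 stood at 1.718, Mup10 at 7.857 (0.803 to 1.10), Sult3a1 at 0.4787, C8a at 215.3 (98.1 to 127), Scp2 at 1682.0 and Ppara at 91.27.

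The sex difference was called as different between the diets, by the interaction test in edgeR, for 30 of the genes named. Values are log2, the malnourished minus the control sex difference. Below 0 among female-typical genes were Sult3a1 (-11.176), Cyp2b13 (-9.207), Cyp2b9 (-8.966), A1bg (-8.232), Acot3 (-7.404), Slc22a26 (-7.203), Cyp3a16 (-5.407), Cyp2a22 (-4.393), Cux2 (-4.212), Tox (-2.157) and Trim24 (-1.383). Below 0 among other genes were Mup10 (-6.923), Slco1a1 (-5.808), Mup13 (-4.755), Ugt1a9 (-2.478), Cyp4a32 (-1.781), Nr1i3 (-1.607), Hpgd (-1.487), Inmt (-1.324) and Cyp4f14 (-1.104). Above 0 were Cxcl1 (5.72), Saa1 (4.546), Saa2 (4.179), Smpd3 (3.578), Tff3 (3.384), Cyp7b1 (3.06), Dbp (3.023), C6 (2.828), Tle3 (1.947) and Synj2 (1.81). For Saa2 the call was lost without control male 1 (3.01).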

How the results depend on the processing

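Of 945 genes higher in malnourished females and 1358 higher in males, 275 and 470 were called without both males, 1987 and 602 with library totals alone, and 205 and 204 when a 2-fold difference was also required. Over the 19 fits that each left out 1 library the counts ran from 509 to 1082 and from 849 to 1526. Genes called in the same direction on both diets numbered 324 without both males. The 1126 genes higher in control males became 548 with library totals alone and 1884 with limma-voom, and ran from 653 to 1338 over the single removals. The interaction counts of 111 and 163 became 375 and 455 without the 3 libraries whose label numbers start with 62, 240 and 351 with DESeq2, and 301 and 339 with limma-voom, and ran from 62 to 237 and from 93 to 369 over the single removals. The 26 genes called in opposite directions became 66 without those 3 libraries, 10 without both males, 52 with limma-voom, and 17 with no filter or with a replicate block, and ran from 8 to 44. Where samples were removed the fits had fewer libraries; otherwise the cause was not tested. The share of promoters with TTCNNNGAA was 6.11% over 250 bases against 7.05% over 300, fewer bases being searched.

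Replicate numbers are shared by the groups, but same-numbered malnourished mice did not deviate together (correlations -0.086 to 0.061, and 1 of 5 mice correlated best with its own number), so the numbers do not pair the mice. With a replicate block 891 and 1216 genes were called. Of 30 called interactions of named genes, 8 were not called with limma-voom (Cyp2a22, Cyp2b13, Cyp3a16, Acot3, Cux2, Cxcl1, Saa2 and Dbp). Of 114 named genes, 86 were on the same side of the threshold without males 1 and 3, and none changed sign while called. At 21377385 to 33501907 counts per library, genes of a few counts such as Cyp4a12b in females carry wide counting intervals.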
